A study of Homo sapiens with 6 samples.

Results

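Nuclear receptors are transcription factors that bind small lipophilic ligands, and 34 of them, with 5 of their coregulators, were followed in T24 bladder cancer cells. The 39 genes were chosen by symbol from receptor and coregulator families, and each symbol was matched to its Ensembl identifier in the deposited table of 60612 identifiers. T24 is an established human bladder cancer cell line, and RNA was sequenced from 6 libraries of it. The 3 negative control libraries came from cells given a lentivirus with a control hairpin (Lenti-dsControl), and their genotype label is WT. The 3 libraries labelled FOXF1-activated came from cells given a lentivirus with a hairpin made from a small activating RNA for FOXF1 (Lenti-dsFOXF1-367). Small activating RNAs are short double-stranded RNAs aimed at a promoter in order to increase its gene's transcription, and FOXF1 is a forkhead transcription factor. Puromycin at 3 μg/ml was used to select transduced cells, and the labels give this protocol for all 6 libraries. Whether replicates were separate cultures is not stated in the labels, and the p-values therefore reflect only library-to-library spread, which may be technical.

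Most nuclear receptors share a zinc finger domain that reads short DNA half-sites and a pocket that binds the ligand. Receptors for retinoic acid, thyroid hormone, vitamin D, oxysterols and fatty acids pair with a retinoid X receptor, whereas steroid receptors act as pairs of the same kind after leaving chaperone complexes. With ligand bound, a receptor recruits coactivators of the p160 family (NCOA1, NCOA2 and NCOA3), and without ligand several receptors hold corepressors such as NCOR1. In the urothelium retinoids are known for their part in maintaining differentiation.

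Gene counts summed to 77198669, 75536664 and 72500854 in the negative control libraries and to 73129362, 72765654 and 76358542 in those labelled FOXF1-activated. Levels are given as CPM, counts scaled to a common library size with TMM factors, as mean ± SD over 3 libraries. FOXF1, the gene that the hairpin was designed to raise, was at 7.51, 7.10 and 7.95 CPM in the negative control libraries and at 5.94, 4.78 and 5.10 CPM in those labelled FOXF1-activated. It was thus lower, not higher, in every library labelled FOXF1-activated (log2 fold change -0.51, SE 0.14, edgeR adjusted p = 0.0109), so each direction below refers to that label and not to a raised FOXF1 level. Whether the group labels were exchanged was not tested, and an exchange would turn every direction given below. Of 13 urothelial and epithelial markers, 5 reached 1 CPM in a library. Their summed level ran from 1658 to 1784 CPM in the controls and from 1162 to 1241 CPM in the other group, nearly all of it KRT7, KRT8 and KRT18. KRT5, TP63, UPK1A and UPK3A had no count in any library, and CDH1 had 8 counts in all. Of 5 leukocyte, 4 endothelial and 6 fibroblast markers, 4, 3 and 6 reached 1 CPM, with 2, 1 and 0 called higher and 2, 0 and 2 called lower. The summed leukocyte level was 33.1 to 40.5 CPM in the controls and 24.1 to 28.1 CPM in the other group, the endothelial level 5.19 to 8.80 and 5.06 to 13.6 CPM, and the fibroblast level 380.5 to 437 and 289.7 to 455 CPM. Their part in the results was not tested.

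The comparison asked how receptor and coregulator transcripts differed between the hairpins. The largest falls were in the receptors for vitamin D (VDR), thyroid hormone (THRB) and retinoic acid (RARG) and in the orphan receptor gene RORB, and the largest rise was in the coactivator gene NCOA3. VDR was 9.30-fold lower, RORB 5.50-fold, THRB 4.37-fold and RARG 3.12-fold lower in the FOXF1-activated group, and NCOA3 was 3.06-fold higher. Of the 39 genes, 35 had enough counts to be tested, 11 were higher and 14 lower at an edgeR adjusted p under 0.05, and 10 were not called. Over all 20334 genes tested 60.7% were called, 29.2% higher and 31.5% lower, so calls in both directions were common throughout the transcriptome. The 7 called members that differed at least 2-fold stand beside 28.8% of all tested genes. The groups did not overlap for 28 of the 35 tested members, beside 68.8% of all tested genes. The median log2 fold change was -0.03 over the tested members and near 0 over all genes. In bulk RNA, fewer cells that express a gene and less of its RNA per cell cannot be told apart.

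**Figure D1:**
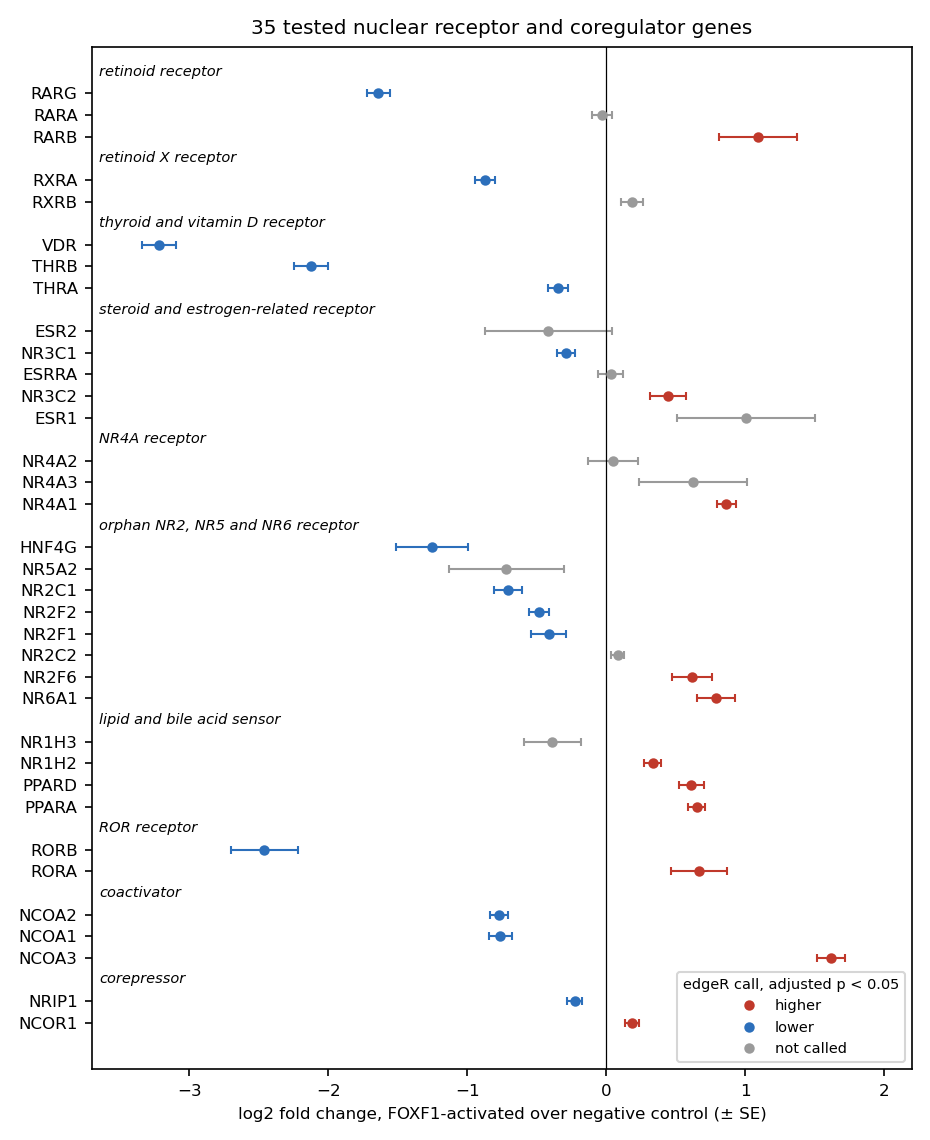
Log2 fold change of the 35 tested receptor and coregulator genes, FOXF1-activated over negative control (x axis, with standard error bars), grouped by class on the y axis and coloured by edgeR call. VDR stands farthest to the left at -3.22 and NCOA3 farthest to the right at 1.62.

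The 4 members that were not tested had few or no counts. RXRG, the retinoid X receptor gene of muscle and brain, had 0 counts in every library, which allows at most 0.0389 to 0.0414 CPM before TMM scaling (3 counts of each total). PGR, the progesterone receptor gene, had 4 counts in FOXF1-activated replicate 1 and 0 elsewhere, and HNF4A, a liver and gut receptor gene, had 2 counts in negative control replicate 2 and 0 elsewhere. NR1H4, which encodes the bile acid receptor FXR, had 16, 8 and 12 counts in the controls and 4, 0 and 8 in the other group. The limits cover counting error only.

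The promoters of the members that changed at least 2-fold are shown for the 5 with an entry, upstream of the start that RefSeq gives (GRCh38.p14), without stretches that GENCODE 29 annotates as exons. Capitals mark matches on either strand to AGGTCA (the nuclear receptor half-site), GTAAACA (forkhead), TGACGTCA (cAMP response element), GGGCGG (GC box), TGANTCA (AP-1) and GTTCA followed after any 6 bases by GTTCA (the core of a retinoic acid response element). RARB is shown from the start that carries the last of these.
RARB (chr3:25428013-25428262, plus strand, 250 to 1 bases before the start): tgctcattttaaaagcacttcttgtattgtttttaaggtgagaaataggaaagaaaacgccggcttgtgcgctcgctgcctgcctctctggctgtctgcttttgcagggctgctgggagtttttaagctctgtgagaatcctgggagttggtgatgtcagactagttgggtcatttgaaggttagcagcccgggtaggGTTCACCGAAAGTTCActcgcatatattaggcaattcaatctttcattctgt
RARG (chr12:53232257-53232459, minus strand, 250 to 48 bases before the start): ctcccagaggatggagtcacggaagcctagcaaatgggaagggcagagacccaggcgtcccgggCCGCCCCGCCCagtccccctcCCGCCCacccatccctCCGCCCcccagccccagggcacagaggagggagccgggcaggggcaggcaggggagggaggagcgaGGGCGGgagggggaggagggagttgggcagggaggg
THRB (chr3:24495757-24495956, minus strand, 248 to 49 bases before the start): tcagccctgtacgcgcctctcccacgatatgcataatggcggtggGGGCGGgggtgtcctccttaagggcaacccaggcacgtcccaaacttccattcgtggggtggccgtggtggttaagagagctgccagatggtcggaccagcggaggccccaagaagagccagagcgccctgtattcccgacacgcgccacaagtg
RORB (chr9:74497085-74497334, plus strand, 250 to 1 bases before the start): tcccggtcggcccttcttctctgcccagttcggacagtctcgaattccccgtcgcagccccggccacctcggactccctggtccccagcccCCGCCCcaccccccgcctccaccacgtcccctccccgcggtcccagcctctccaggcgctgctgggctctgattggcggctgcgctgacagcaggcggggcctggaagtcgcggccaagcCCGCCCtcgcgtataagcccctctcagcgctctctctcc
NCOA3 (chr20:47501637-47501886, plus strand, 250 to 1 bases before the start): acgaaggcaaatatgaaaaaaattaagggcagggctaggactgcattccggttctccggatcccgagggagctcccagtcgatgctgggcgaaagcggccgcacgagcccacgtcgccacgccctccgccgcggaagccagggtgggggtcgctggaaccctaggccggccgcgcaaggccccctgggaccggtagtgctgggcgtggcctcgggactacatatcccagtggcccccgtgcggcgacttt
The retinoic acid element core began 52 bases before the start of RARB, which is the element textbooks describe for this gene, and occurred in 17 of 35116 RefSeq windows of 250 bases (0.0484%). RARB was the one member with it. Among the stretches shown, those of RARG, THRB and RORB held GC boxes, and a RARB window that is not shown held 2. Of the 77 member windows 45 (58.4%) held a GC box, beside 42.6% of all windows. The forkhead letters were upstream of NR3C1 and NR5A2 among the 34 members with an entry. That is 2 of the 77 member windows (2.6%), beside 2.98% of all windows. The NR3C1 window that holds them lies wholly within annotated exons. The NCOA3 window held none of these 6 motifs. VDR, HNF4G, NCOA2, NR2F6 and NR4A2 had no entry. A match is a description of these letters, and some genes have several windows.

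The 3 retinoic acid receptors went different ways. RARG (ENSG00000172819; chr12:53210567-53232980, minus strand; coordinates of genes are those of GENCODE 29 on GRCh38), the receptor of epithelia and skin, was at 48.7, 48.0 and 53.2 CPM in the negative controls and 17.2, 15.1 and 15.8 CPM in those labelled FOXF1-activated. All 3 of the latter lay below every control, and RARG fell from 50.0 ± 2.79 to 16.0 ± 1.05 CPM (log2 fold change -1.64, SE 0.08, edgeR adjusted p = 1.91e-07). RARB (ENSG00000077092; chr3:25174332-25597932, plus strand), which retinoic acid itself induces through the element shown above, was at 0.852, 1.33 and 0.896 CPM in the controls and 2.75, 1.98 and 1.83 CPM in the other group. It rose by 1.09 on the log2 scale (SE 0.28, edgeR adjusted p = 0.00760), from 67 to 102 counts per control library to 137 to 194. RARB exons share 28 bases with those of TOP2B on the opposite strand. TOP2B had 11468 to 13581 counts per library and was not called (edgeR adjusted p = 0.129). The part of shared reads in the low RARB counts was not tested. RARA, the broadly expressed receptor, was at 29.9, 30.6 and 30.1 CPM in the controls and 30.9, 28.4 and 29.4 CPM in the other libraries. These ranges overlapped, and RARA was not called (log2 fold change -0.03, SE 0.07, edgeR adjusted p = 0.738). Per kilobase of exon, which allows genes to be set side by side, RARG made up 59.4 ± 1.65% of the summed level of the family in the controls and 31.3 ± 0.307% in the other group. RARA made up 38.9 ± 1.31% and 62.8 ± 1.10%, and RARB 1.69 ± 0.454% and 5.90 ± 1.01%. The most abundant retinoic acid receptor transcript was thus RARG in every control and RARA in every library labelled FOXF1-activated, while the summed level was 16.4 ± 0.495 and 9.97 ± 0.588 CPM per kb.

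Of the retinoid X receptors, the shared partners of many others, RXRA fell and RXRB was not called. RXRA was at 128, 119.5 and 119 CPM in the controls and 66.0, 73.3 and 61.0 CPM in those labelled FOXF1-activated. The groups were well apart, and RXRA fell from 122 ± 4.92 to 66.8 ± 6.22 CPM (log2 fold change -0.87, SE 0.07, edgeR adjusted p = 4.86e-06). RXRB was at 38.3, 34.3 and 36.6 CPM and 39.5, 44.7 and 40.1 CPM, with every library labelled FOXF1-activated above every control (log2 fold change 0.19, edgeR adjusted p = 0.0603). It passed the threshold in 6 of its 16 alternatives, with an adjusted p of 0.00942 to 0.276 over the 16 alternatives. Per kilobase of exon, RXRA made up 54.3 ± 0.826% of the family in the controls and 36.3 ± 1.17% in the other group. On this measure the order of RXRA and RXRB turned. In CPM, RXRA stayed above RXRB in every library, so the turn depends on the exon lengths, 11.1 kb for RXRA and 3.92 kb for RXRB. The summed level of the family was 20.3 ± 0.906 and 16.6 ± 1.24 CPM per kb.

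The receptors for thyroid hormone and vitamin D were lower in all 3 cases, beside 31.5% of all genes tested. VDR (ENSG00000111424; chr12:47841537-47943048, minus strand), which mediates the effects of vitamin D, was at 32.3, 28.8 and 30.7 CPM in the controls and 3.22, 3.74 and 2.90 CPM in those labelled FOXF1-activated. It was the member with the largest change, and fell from 30.6 ± 1.76 to 3.29 ± 0.425 CPM (log2 fold change -3.22, SE 0.12, edgeR adjusted p = 4.83e-08). The 217 to 265 counts per library behind the lower level set its precision. THRB (ENSG00000151090; chr3:24117153-24495756, minus strand), a thyroid hormone receptor gene, was at 23.4, 23.2 and 25.7 CPM and 5.91, 4.66 and 5.98 CPM. It fell from 24.1 ± 1.41 to 5.51 ± 0.744 CPM (log2 fold change -2.13, SE 0.12, edgeR adjusted p = 4.98e-07). THRA, the other thyroid hormone receptor gene, was at 46.3, 45.8 and 44.1 CPM in the controls and 37.0, 33.2 and 36.9 CPM in the other group, without overlap. Its fall was small, by 0.35 on the log2 scale (SE 0.07, edgeR adjusted p = 0.00172). THRA made up 74.8 ± 1.57% of the pair per kilobase in the controls and 91.1 ± 0.625% in the other group.

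**Figure D2:**
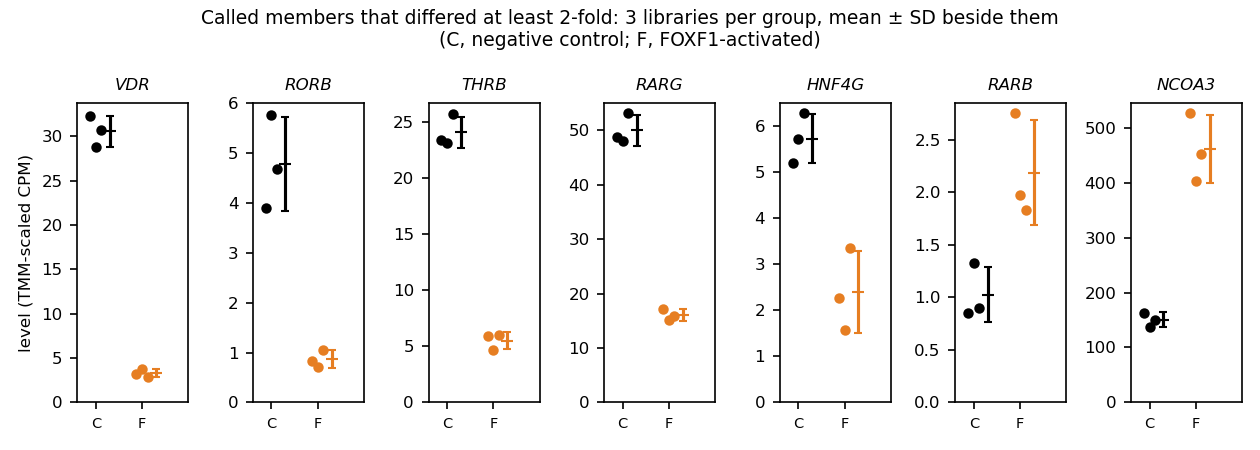
Levels in TMM-scaled CPM (y axis, from 0, a separate scale for each gene) of the 7 called members that differed at least 2-fold, as points for 3 negative control libraries (black) and 3 libraries labelled FOXF1-activated (orange, F on the x axis), with the mean ± SD beside them. VDR lies at 28.8 to 32.3 CPM in the controls and at 2.90 to 3.74 CPM in the other group. The groups overlap in none of the 7 genes, which were chosen by call and size of change. Over all tested genes the groups did not overlap for 68.8%.

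Changes among the steroid and estrogen-related receptors were smaller. NR3C1, the glucocorticoid receptor, was at 66.3, 70.2 and 72.5 CPM in the controls and 60.4, 54.7 and 55.8 CPM in those labelled FOXF1-activated. The groups did not overlap, and NR3C1 fell by 0.29 on the log2 scale (SE 0.06, edgeR adjusted p = 0.00268). NR3C2, the mineralocorticoid receptor, was at 15.9, 11.9 and 13.9 CPM and 18.0, 21.1 and 17.4 CPM. It rose by 0.44 (SE 0.13, edgeR adjusted p = 0.0139). The call did not hold when negative control replicate 2 was left out (log2 fold change 0.34, adjusted p = 0.0558) or FOXF1-activated replicate 2 was (0.35, adjusted p = 0.0525; adjusted p 9.55e-04 to 0.0558 over the 16 alternatives). NR3C2 made up 21.7 ± 3.00% of this pair per kilobase in the controls and 31.5 ± 3.01% in the other group. ESRRA, an orphan receptor that controls mitochondrial genes, was at 25.6, 29.3 and 26.8 CPM and 26.0, 30.4 and 27.2 CPM. The groups overlapped, and ESRRA was not called (log2 fold change 0.03, edgeR adjusted p = 0.781). The estrogen receptor genes had few counts. ESR1 had 13 to 30 counts per control library and 30 to 57 in the other group (log2 fold change 1.005, SE 0.49, edgeR adjusted p = 0.107). ESR2 had 103 to 164 and 31 to 138 counts, with overlapping groups (log2 fold change -0.42, SE 0.46, edgeR adjusted p = 0.460). Neither estrogen receptor gene was called.

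Of the NR4A receptors, orphan receptors that growth factors and stress induce within minutes to hours, NR4A1 rose. It was at 29.05, 29.8 and 32.5 CPM in the controls and 57.7, 54.5 and 53.9 CPM in those labelled FOXF1-activated. All 3 of the latter were above all controls (log2 fold change 0.86, SE 0.07, edgeR adjusted p = 3.60e-06). NR4A2, known for its part in dopamine neurons, was at 2.99 ± 0.226 and 3.09 ± 0.322 CPM (log2 fold change 0.05, edgeR adjusted p = 0.830), and NR4A3 at 0.684 ± 0.246 and 1.05 ± 0.392 CPM (0.62, edgeR adjusted p = 0.198). For both the groups overlapped, and neither was called. NR4A1 made up 82.9 ± 0.696% of the family per kilobase in the controls and 88.9 ± 1.08% in the other group. A test of the difference between the 3 genes was not run.

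Among the other orphan receptors, 2 were higher, 4 were lower and 2 were not called, and HNF4A was not tested. The share called was 75%, beside 60.7% of all genes tested, of which 29.2% were higher and 31.5% lower. HNF4G, a relative of HNF4A, was at 5.20, 5.73 and 6.28 CPM in the controls and 2.27, 1.58 and 3.35 CPM in those labelled FOXF1-activated. It fell by 1.26 on the log2 scale (SE 0.26, edgeR adjusted p = 0.00213), and its spread within the FOXF1-activated group was wide, with 112 to 251 counts per library. NR2C1, the testicular receptor TR2, was at 34.1, 35.0 and 32.5 and 18.5, 20.1 and 23.5 CPM (log2 fold change -0.71, SE 0.10, edgeR adjusted p = 1.60e-04). NR2C2, the related TR4, was at 123, 121 and 121 and 126, 130.1 and 129 CPM and was not called (log2 fold change 0.08, edgeR adjusted p = 0.165). Under upper-quartile scaling (log2 fold change 0.18, adjusted p = 0.00920), the 1 CPM filter (0.12, adjusted p = 0.0409) and the DESeq2 test (0.12, adjusted p = 0.0451) NR2C2 passed (adjusted p 0.00920 to 0.958 over the 16 alternatives).

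The COUP transcription factors, which often repress targets of other receptors, did not move as a block. NR2F2, COUP-TFII, was at 56.8, 59.5 and 62.1 CPM in the controls and 46.4, 40.9 and 40.5 CPM in those labelled FOXF1-activated. It fell by 0.48 on the log2 scale (SE 0.07, edgeR adjusted p = 2.72e-04), with no overlap. NR2F1, COUP-TFI, was at 14.7, 12.5 and 12.4 and 8.80, 10.2 and 10.7 CPM and also fell (log2 fold change -0.42, edgeR adjusted p = 0.0155). That call did not hold under upper-quartile scaling (-0.32, adjusted p = 0.0524), with negative control replicate 1 left out (-0.34, adjusted p = 0.0641) or with FOXF1-activated replicate 1 left out (-0.34, adjusted p = 0.0594; adjusted p 0.00771 to 0.0641 over the 16 alternatives). NR2F6, known as EAR2, was at 7.26, 6.71 and 8.27 and 12.9, 11.6 and 9.61 CPM and rose (log2 fold change 0.62, SE 0.15, edgeR adjusted p = 0.00454). Its share of the family per kilobase was 18.4 ± 1.36% in the controls and 32.3 ± 2.78% in the other group. NR6A1, the germ cell nuclear factor, was at 6.18, 7.48 and 6.48 and 13.0, 10.2 and 11.7 CPM and rose by 0.79 (SE 0.14, edgeR adjusted p = 6.93e-04). NR5A2, the liver receptor homolog, had 57 to 82 counts per control library and 21 to 59 in the other group. It was not called (log2 fold change -0.72, edgeR adjusted p = 0.161), but passed without FOXF1-activated replicate 3 (-1.15, adjusted p = 0.0470; adjusted p 0.0470 to 0.380 over the 15 alternatives).

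The lipid sensors rose or were not called. PPARA, which drives fatty acid oxidation, was at 45.6, 43.7 and 44.6 CPM in the controls and 75.4, 66.9 and 67.8 CPM in those labelled FOXF1-activated. It rose from 44.6 ± 0.916 to 70.0 ± 4.68 CPM (log2 fold change 0.65, SE 0.06, edgeR adjusted p = 1.55e-05). PPARD, its widely expressed relative, was at 36.3, 40.0 and 37.0 and 51.3, 64.9 and 56.9 CPM (log2 fold change 0.61, SE 0.09, edgeR adjusted p = 2.38e-04). Both rose by a like amount, and PPARD made up 71.5 ± 1.43% of their summed level per kilobase in the controls and 70.8 ± 3.70% in the other group, with overlap. In CPM, PPARA was above PPARD in every library. The larger share of PPARD thus depends on the exon lengths, 13.2 kb for PPARA and 4.46 kb for PPARD. NR1H2, the oxysterol receptor LXR-beta, was at 53.6, 57.9 and 54.3 and 71.9, 71.3 and 65.6 CPM (log2 fold change 0.33, SE 0.06, edgeR adjusted p = 0.00102). Its relative NR1H3, LXR-alpha, was at 3.57 ± 0.680 and 2.73 ± 0.334 CPM, with overlapping groups, and was not called (log2 fold change -0.39, edgeR adjusted p = 0.132).

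The ROR receptors, which bind DNA as single molecules, went opposite ways. RORB (ENSG00000198963; chr9:74497365-74693177, plus strand), known from retina and brain, was at 3.90, 5.76 and 4.68 CPM in the controls and 0.838, 0.706 and 1.05 CPM in those labelled FOXF1-activated. It fell by 2.46 on the log2 scale (SE 0.24, edgeR adjusted p = 1.55e-05), to 50 to 79 counts per library. RORA, a circadian and metabolic regulator, was at 3.85, 2.49 and 3.28 and 4.96, 4.54 and 5.78 CPM and rose by 0.67 (SE 0.20, edgeR adjusted p = 0.0165). The RORA call did not hold with negative control replicate 2 left out (0.51, adjusted p = 0.0579) or with FOXF1-activated replicate 3 left out (0.56, adjusted p = 0.0674; adjusted p 0.00342 to 0.0674 over the 16 alternatives). RORB made up 72.2 ± 8.08% of the pair per kilobase in the controls and 23.1 ± 1.43% in the other group. Both were among the low members, with a summed level of 0.686 ± 0.0574 and 0.389 ± 0.0553 CPM per kb.

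The p160 coactivators split. NCOA3 (ENSG00000124151; chr20:47501902-47656877, plus strand), also known as AIB1 for its amplification in breast cancer, was at 164, 137 and 151 CPM in the controls and 527, 404 and 453 CPM in those labelled FOXF1-activated. It rose from 150.4 ± 13.4 to 461 ± 61.9 CPM (log2 fold change 1.62, SE 0.10, edgeR adjusted p = 7.68e-07). NCOA1, the founding member SRC-1, was at 34.0, 34.6 and 37.1 and 21.8, 21.4 and 19.2 CPM (log2 fold change -0.76, SE 0.08, edgeR adjusted p = 2.85e-05). NCOA2, also known as TIF2, was at 84.8, 85.0 and 97.1 and 53.1, 50.7 and 52.3 CPM (log2 fold change -0.77, SE 0.07, edgeR adjusted p = 5.83e-06). NCOA1 and NCOA2 thus both fell while NCOA3 rose. In each case the groups did not overlap, as for 68.8% of all tested genes. NCOA3 made up 58.0 ± 2.70% of the family per kilobase in the controls and 87.7 ± 1.25% in the other group, and the summed level was 30.9 ± 1.82 and 62.5 ± 7.52 CPM per kb.

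**Figure D3:**
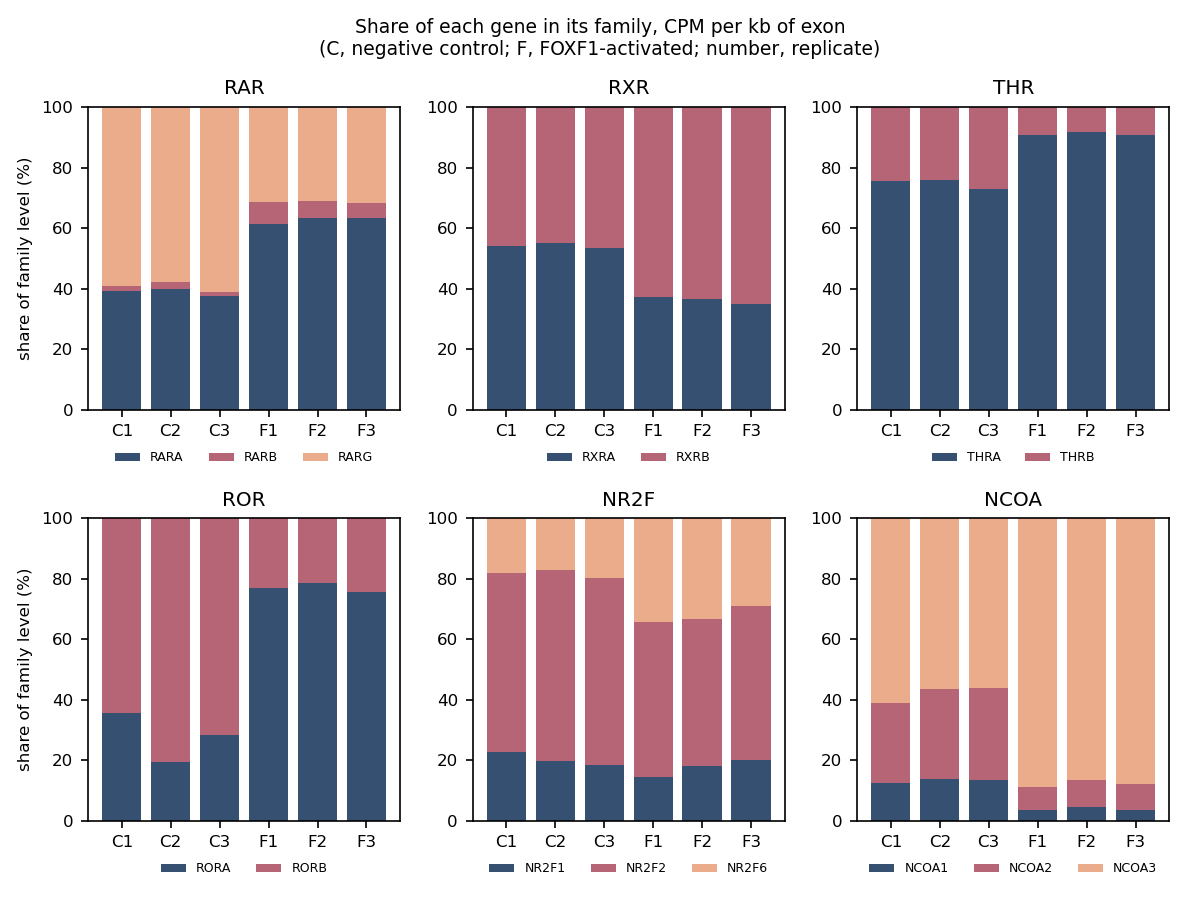
Share of each gene in the summed level of its family, from CPM per kb of exon (y axis, percent), in each library (x axis, C1 to C3 negative control, F1 to F3 FOXF1-activated). On this measure RARG gives way to RARA and RXRA to RXRB as the largest share, although RXRA stays above RXRB in CPM. NCOA3 goes from 58.0% to 87.7% of its family.

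The corepressors changed little. NCOR1, which brings histone deacetylase complexes to unliganded receptors, was at 174, 170.1 and 174 CPM in the controls and 203, 186 and 199 CPM in those labelled FOXF1-activated. It rose by 0.18 on the log2 scale (SE 0.05, edgeR adjusted p = 0.0119). The call was lost with library totals only (0.11, adjusted p = 0.104) and with FOXF1-activated replicate 3 left out (0.17, adjusted p = 0.0520; adjusted p 3.05e-04 to 0.104 over the 16 alternatives). NRIP1, or RIP140, which binds liganded receptors and dampens them, was at 64.5, 62.6 and 63.2 and 56.8, 52.5 and 53.1 CPM. It fell by 0.23 (SE 0.06, edgeR adjusted p = 0.00585), a call lost under upper-quartile scaling (-0.13, adjusted p = 0.0790; adjusted p 9.32e-04 to 0.0790 over the 16 alternatives).

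Set side by side per kilobase of exon, NCOA3 and NR1H2 ranked first and second of the 39 genes in both groups, at 17.9 ± 1.60 and 14.7 ± 0.608 CPM per kb in the controls and 54.9 ± 7.37 and 18.5 ± 0.930 CPM per kb in the other group. In the controls NCOR1 (11.2 ± 0.146) and RXRA (11.0 ± 0.444) followed, and these neighbours did not differ beyond their spread. RXRA ranked 4 in the controls and 13 in those labelled FOXF1-activated, RARG 6 and 19, and VDR 16 and 27. PPARD went from rank 11 to 3 and NR4A1 from 18 to 8. Lengths are those of all annotated exons of a gene joined, so a gene with long rare exons is placed too low. Exons of a gene on the opposite strand covered 11.75% of the exon bases of RARA (RARA-AS1), 10.3% of NR4A1 (AC025259.3) and 10.1% of NR2C2 (MRPS25). They covered 9.37% of ESRRA (TRMT112), 6.61% of NRIP1 (AF127577.1) and 6.22% of RXRB (SLC39A7), and smaller parts of other members. Exons on the same strand covered 8.26% of NR2F6 (AC010646.1) and 5.60% of ESR2 (AL161756.1). AF127577.1 and AC010646.1 had no count in any library. Whether reads were counted by strand is not given in the sources used here.

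Genes that work with these receptors were taken from 9 lists. Of the 14 nuclear receptors that are not among the 39, 9 were tested, 3 were higher and 2 lower (median log2 fold change -0.45, beside 0 over all genes). The share called was 55.6%, beside 60.7% of all genes tested. NR1D1, the clock repressor REV-ERB-alpha, rose from 30.6 ± 1.10 to 66.1 ± 3.50 CPM (log2 fold change 1.11, edgeR adjusted p = 5.49e-07), and NR1D2 rose by 0.62 (edgeR adjusted p = 2.63e-04). NR1D1 lies opposite the 3′ end of THRA, and their exons share 263 bases. Of 22 other coregulators all were tested, 9 were higher and 8 lower (median near 0), so 77.3% were called. MED1, the Mediator subunit that contacts receptors, rose from 102 ± 2.34 to 232 ± 21.9 CPM (log2 fold change 1.19), and the ligand-dependent corepressor gene LCOR rose by 1.33. HDAC3, the deacetylase of the NCOR complex, fell from 82.0 ± 4.67 to 46.2 ± 3.06 CPM (log2 fold change -0.83).

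Of the genes that make, carry and degrade retinoids, 14 of 18 were tested, 9 were lower and 1 was higher, beside 31.5% lower and 29.2% higher among all genes tested, with a median log2 fold change of -0.44. DHRS3, which reduces retinaldehyde and is itself a retinoic acid target, fell from 74.1 ± 12.6 to 12.3 ± 1.08 CPM (log2 fold change -2.59, SE 0.13, edgeR adjusted p = 1.75e-07). ALDH1A3, which makes retinoic acid from retinaldehyde, fell from 515 ± 32.8 to 193 ± 21.1 CPM (log2 fold change -1.42, edgeR adjusted p = 5.57e-07). FABP5, a carrier that can pass retinoic acid to PPARD, fell by 1.23 on the log2 scale (edgeR adjusted p = 1.03e-06). The gene that was higher, named after its value was seen, was ALDH1A2, another retinaldehyde dehydrogenase gene (0.78, edgeR adjusted p = 0.0132), and without negative control replicate 2 or 3 none of the list was higher. The number lower was 6 under upper-quartile scaling, 7 with DESeq2's size factors or no filter, up to 10 under the other settings, and 6 to 8 with 1 library left out.

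Of the genes that handle vitamin D and thyroid hormone, 8 of 13 were tested, 3 were higher and 1 lower (median log2 fold change 0.43). The share called was 50%, beside 60.7% of all genes tested. CYP2R1, the vitamin D 25-hydroxylase, fell from 5.51 ± 1.05 to 2.78 ± 0.172 CPM (log2 fold change -0.98, edgeR adjusted p = 0.00117). CYP27B1, which activates vitamin D, rose by 0.45 (edgeR adjusted p = 0.0381). Only 1 gene was higher with library totals only, with no filter, with the replicate number in the model, or when negative control replicate 1, negative control replicate 2 or FOXF1-activated replicate 2 was left out. When FOXF1-activated replicate 3 was left out, 2 were lower. CYP24A1, the classical target of VDR, was at 0.147 ± 0.191 and 0.295 ± 0.0400 CPM and was not called (log2 fold change 0.99, SE 1.03, edgeR adjusted p = 0.436). It had 29, 6 and 0 counts in the controls and 21, 18 and 25 in the other group. With so few counts the lack of a call does not tell whether CYP24A1 changed. CYP24A1 was not named by the rule for lists.

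Targets of the glucocorticoid receptor, chosen from textbook examples in other cells, were 6 higher and 4 lower of 12 tested (median log2 fold change 0.20). The share called was 83.3%, beside 60.7% of all genes tested. SGK1, a kinase that regulates sodium channels, rose from 5.62 ± 0.426 to 41.6 ± 1.04 CPM (log2 fold change 2.89, edgeR adjusted p = 2.14e-08), and the EGF receptor inhibitor gene ERRFI1 rose by 1.84. FKBP5, the co-chaperone that damps glucocorticoid binding, fell from 41.3 ± 1.88 to 10.9 ± 0.467 CPM (log2 fold change -1.92, edgeR adjusted p = 8.49e-08). Steroid receptor chaperones were 7 higher and 4 lower of 12 (median 0.29), so 91.7% were called. Of these chaperones, FKBP5, which stands in both lists, had the smallest p. STIP1, which links HSP70 to HSP90, rose from 253 ± 16.2 to 612 ± 42.5 CPM (log2 fold change 1.28, edgeR adjusted p = 3.22e-07), and HSPA4 rose by 0.88. Estrogen receptor targets were 5 higher and 2 lower of 10 (median 0.48), so 70% were called. GREB1 rose from 0.761 ± 0.239 to 5.73 ± 0.639 CPM (log2 fold change 2.91, edgeR adjusted p = 8.72e-06), XBP1, also a factor of the unfolded protein response, rose by 1.14, and IGFBP4 fell by 0.77 on the log2 scale.

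Targets of LXR and PPAR receptors split evenly, 5 higher and 5 lower of 16 tested (median log2 fold change near 0). The share called, 62.5%, was close to the 60.7% of all genes tested, of which 29.2% were higher and 31.5% lower. SCD, the stearoyl-CoA desaturase, fell from 1119.6 ± 4.71 to 278 ± 25.0 CPM (log2 fold change -2.01, edgeR adjusted p = 2.92e-08), LPCAT3, a phospholipid remodelling enzyme, fell by 1.44, and SREBF1, the lipogenic factor, fell by 0.96 on the log2 scale. Immediate early genes, which growth signals induce along with NR4A1, were 10 higher and 2 lower of 15 tested (median 1.57), so 80% were called. ATF3 rose from 5.54 ± 1.64 to 102 ± 8.49 CPM (log2 fold change 4.20, edgeR adjusted p = 9.24e-08), EGR1 rose by 3.17, and IER3 rose by 1.95. Some genes stand in more than 1 list, and no list was tested as a set.

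**Figure D4:**
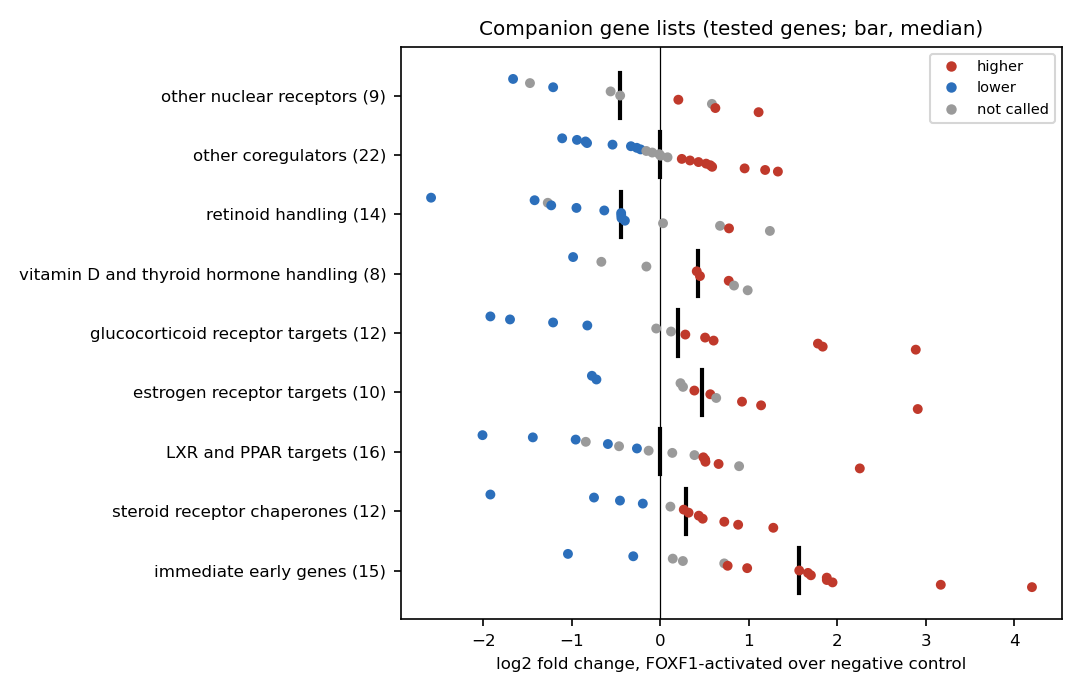
Log2 fold change, FOXF1-activated over negative control (x axis), of every tested gene in the 9 lists (y axis, with the number of tested genes), coloured by edgeR call, with the list's median as a bar. The immediate early genes have the highest median, 1.57, and DHRS3, a retinoid gene, lies farthest to the left at -2.59.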

How the data were processed

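Ribosome-depleted, stranded libraries were sequenced with paired reads of 150 bases, per the labels. The authors deposited whole-number counts per Ensembl gene identifier, 1 column per library, which were used as unnormalised. The submitters' processing notes name cutadapt 1.9, TopHat2 2.0.4 and build GRCh38. The sources used here give no counter, strand setting or annotation release. Values of 4, 8 and 12 were 2.36, 1.94 and 1.6 times as frequent as their neighbours. The cause was not tested, and counts divided by 4 were tried as an alternative.

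The members and lists were chosen with earlier results of these data known. Genes passed filterByExpr (minimum count 10, minimum total 15) and were scaled by TMM. The groups were compared by edgeR 4.0.16 (quasi-likelihood F test, R 4.3.3), with Benjamini-Hochberg adjustment over 20334 genes and no covariates. The SE is the size of the log2 fold change over the square root of F. Other alternatives were 3 scalings, 2 filters, DESeq2 1.42.0, limma-voom (limma 3.58.1), a replicate block, a prior count of 2, and omission of each library in turn. By rule, values per library are given for called members and for those of at least 5 CPM in a group, and each list names up to 3 called genes of smallest p with at least 5 CPM, of which 2 are not reported here. No 2 libraries of a group agreed within counting noise (chi-square per degree of freedom 18.4 to 30.1). Symbols were found for 60401 identifiers. On simulated data the fit missed its first pass rule, which was then relaxed to genes of at least 1 CPM and a lower recovery. Fitted fold changes were close to those simulated, but many small changes and some large changes were missed, the large ones mostly in low genes. Of the 4-fold changes 50 of 66 were recovered, and 46 of 50 in genes of at least 1 CPM. The share of false calls was above the nominal 0.05. The simulation changed 67, 67 and 66 of 20334 genes by 1.5-, 2- and 4-fold, whereas 60.7% of genes were called in these data. Its share of false calls therefore does not carry over to them. Calls close to the threshold may be less certain than their adjusted p, but the simulation cannot say by how much.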

Additional observations from a re-analysis of the deposited data

How the results depend on the processing

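Over the 16 alternatives, 20 of the 25 called members kept their direction and call, and the exceptions (NR2F1, NR3C2, RORA, NCOR1 and NRIP1) are given with their values above. Members called higher numbered 10 to 13 and lower 12 to 14 under other settings, and 9 to 12 and 13 to 15 when a library was left out, against 11 and 14. All genes called numbered 11014 to 12831 (11487 to 12002 with a library left out). Some small values without a call changed sign. RARA was at 0.0045 with DESeq2's size factors and its test, 0.0698 under upper-quartile scaling, 0.0128 with a minimum of 1 CPM and 0.00270 with counts divided by 4. With library totals only ESRRA was at -0.0458 and NR4A2 at -0.0292. Leaving out 1 library gave -0.0359 to 0.0843 for ESRRA, negative when negative control replicate 1 or FOXF1-activated replicate 2 was left out, and -0.0179 to 0.130 for NR4A2, negative when FOXF1-activated replicate 3 was. The cause was not tested. The median over all genes moved to 0.0992 under upper-quartile scaling and to -0.0787 with library totals. In the vitamin D and thyroid list 1 gene was higher with library totals, no filter or the replicate block, and 1 to 3 higher and 1 to 2 lower when a library was left out. In the retinoid list 0 to 1 was higher then.

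Replicate numbers did not pair the libraries. Deviations of same-numbered libraries from their group means correlated at -0.0202, -0.000998 and -0.0206, and with the replicate block 11 members were higher, 14 lower and 11790 genes called. Depth limits ESR1 and NR5A2, which were under 100 counts in every library, and RORB in those labelled FOXF1-activated.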

Other observations

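Several genes that overlap a member on the opposite strand also changed. FGD5-AS1, a long noncoding RNA gene that shares 155 exon bases with NR2C2, fell from 147 ± 5.03 to 50.1 ± 4.28 CPM (log2 fold change -1.55, edgeR adjusted p = 1.09e-07), while NR2C2 was not called. ACP2, a lysosomal acid phosphatase gene that shares 189 exon bases with NR1H3, fell from 26.5 ± 1.47 to 6.55 ± 1.33 CPM (log2 fold change -2.02, edgeR adjusted p = 2.20e-06). TRMT112, a methyltransferase cofactor gene opposite ESRRA with 284 shared exon bases, rose from 78.1 ± 6.96 to 125 ± 5.69 CPM (log2 fold change 0.68, edgeR adjusted p = 2.65e-05). NR2F1-AS1, transcribed away from NR2F1 with 158 shared exon bases, fell from 5.53 ± 0.820 to 3.38 ± 0.340 CPM (log2 fold change -0.71, edgeR adjusted p = 0.00573), as NR2F1 did. The part of shared reads in the values of these members was not tested. These neighbours were chosen after their values were seen.

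PPARG, a receptor of urothelial and fat cell differentiation that is not among the 39 genes, was at 56.1, 52.7 and 53.8 CPM in the controls and 66.1, 59.8 and 61.5 CPM in those labelled FOXF1-activated. It rose by 0.20 on the log2 scale (SE 0.06, edgeR adjusted p = 0.0155), without overlap between the groups, beside 0.65 for PPARA and 0.61 for PPARD. PPARG was named after its value was seen.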
